A study of Mus musculus with 8 samples.

Results

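The 5 genes described here encode carriers that move organic anions and thyroid hormone across brain capillaries: Slco1a4, Slco1c1, Slco2b1, Slco2a1 and Slc22a8. They were chosen by name, and every array probe whose accession maps to one of them in the RefSeq table was taken. This gave 7 probes of 39429, and the 5 genes stand among 21937 genes tested. Microvessels had been prepared from mouse forebrain by homogenisation, sedimentation and a filter that kept particles under 70 µm. The mice were 5 days old (P5), 10 days old (P10) or adult, with 2 replicates of each age. Strain, sex, genotype, treatment, the age of the adults and the number of animals per preparation are not given in the sources used here. Each of 8 two-colour arrays compared RNA of 2 ages, and each replicate filled 1 slide of 4 arrays. The labels do not say that replicates came from separate animals, so the p-values cover the spread of these samples alone, and that spread may be technical.

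Organic anion transporting polypeptides, the products of the Slco genes, carry bile salts, steroid conjugates, thyroid hormones and many drugs across cell membranes without using ATP. In rodents Oatp1c1, the product of Slco1c1, carries thyroxine into the brain across the capillary wall, and Oatp1a4, the product of Slco1a4, is a broad-range carrier of the same endothelial cells. Slco2b1 encodes a carrier of steroid sulfates, Slco2a1 encodes the prostaglandin transporter, and Slc22a8 encodes Oat3, an exchanger that removes organic acids from the brain side of barrier cells. Thyroid hormone that enters the brain is activated or inactivated by deiodinases and acts through nuclear receptors.

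RefSeq start regions matched all 5 genes, with 7 regions in all because Slco2b1 has several starts. The 250 bases before the start are printed for Slco1a4, the member with the steepest increase, for Slco1c1, the thyroxine carrier, and for Slco2a1, the member that ran against the others (build GRCm38.p6). Capitals mark exact matches to ATTGT, a form of the core that SOX factors bind, or its reverse complement ACAAT. They also mark TATAAA, a form of the TATA box core.
Slco1a4, chr6:141856221-141856470, minus strand: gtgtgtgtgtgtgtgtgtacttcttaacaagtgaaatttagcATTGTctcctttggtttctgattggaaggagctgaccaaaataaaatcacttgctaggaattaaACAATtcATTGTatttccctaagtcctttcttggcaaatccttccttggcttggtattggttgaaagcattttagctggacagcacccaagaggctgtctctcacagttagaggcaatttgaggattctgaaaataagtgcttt
Slco1c1, chr6:141524104-141524353, plus strand: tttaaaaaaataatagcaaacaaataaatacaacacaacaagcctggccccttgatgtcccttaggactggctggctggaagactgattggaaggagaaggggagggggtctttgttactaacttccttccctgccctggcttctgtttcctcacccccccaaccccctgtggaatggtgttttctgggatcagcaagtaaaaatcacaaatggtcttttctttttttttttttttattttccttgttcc
Slco2a1, chr9:103008237-103008486, plus strand: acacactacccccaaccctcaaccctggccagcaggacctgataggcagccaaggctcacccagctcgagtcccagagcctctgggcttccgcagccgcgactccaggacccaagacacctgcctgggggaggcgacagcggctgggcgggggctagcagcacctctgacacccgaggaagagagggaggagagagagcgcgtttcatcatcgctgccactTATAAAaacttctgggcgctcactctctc

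The Slco1a4 region held 3 matches to ATTGT or ACAAT, which began 208, 144 and 137 bases before the start. The other 6 regions held none of these exact letters, and other forms of the SOX core were not searched. ATTGT on either strand was present in 27.4% of the 32536 mouse regions of this length. Slco2a1 alone held the exact letters TATAAA, 29 bases before its start, and 12.3% of all regions hold them. The Slc22a8 region, not printed, held the similar letters TATATAA close to its start, which the search did not count. None of the 7 regions held the exact letters AGGTCA, a form of the core of thyroid hormone response elements (14.0% of all regions, both strands). Nor did any hold CTTTGA, a form of the TCF/LEF core (13.9%). Other forms of these cores were not searched. The Slco1c1 region holds the similar letters CTTTGTT, and a region of Slco2b1 holds GGGTCA, which the search did not count. The ETS core GGAA was present in all 7 regions and in 93.4% of all regions. These matches describe the letters of the window and do not show that a factor binds there.

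Slco1a4, Slco1c1, Slco2b1 and Slc22a8 were higher in adult than in P5 microvessels, by 22.3-fold, 2.76-fold, 1.91-fold and 2.01-fold. Slco2a1 ran the other way and was 6.05-fold lower in adult than in P5 microvessels. Between P5 and P10 all 5 genes rose, Slco2a1 included. Between P10 and adulthood Slco1a4 and Slco1c1 rose further, Slco2a1 fell, and the changes of Slco2b1 and Slc22a8 did not pass the test. The test was limma over all genes with Benjamini-Hochberg adjustment and a threshold of 0.05, on 1 level per age and replicate. With the background correction fitted on all spots, none of the 5 increases between P5 and P10 passed (limma, adjusted p from 0.0705 for Slco1a4 to 0.135 for Slco2a1), and none of the 21937 genes tested did. At an unadjusted p under 0.05, 5 members and 7074 genes passed there. That setting differed from the fit reported only in the recorded background of a few faulty spots on 2 arrays, described below.

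All 5 members passed in adult against P5, where 53.1% of all genes did. There 4 members were higher in adult, against a background of 23% of genes, and 1 was lower, against 30.1%. From P10 to adulthood 3 members passed beside 17.5% of all genes, 2 of them higher (background 9.1%) and 1 lower (background 8.42%). In P10 against P5, 5 members were higher, where 18.2% of genes were higher and 41.2% were called in either direction. The median log2 ratio of the members was 1.01 in adult against P5, 0.36 in adult against P10 and 0.8 in P10 against P5, and the medians of all genes were -0.09, -0.01 and -0.06. With so large a share of genes called, passing the test is common at these ages, and the sizes and directions below carry more of the description. All 7 probes were well above background in all 4 channels that held P5 RNA, all 6 that held P10 RNA and all 6 that held adult RNA.

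**Figure D1:**
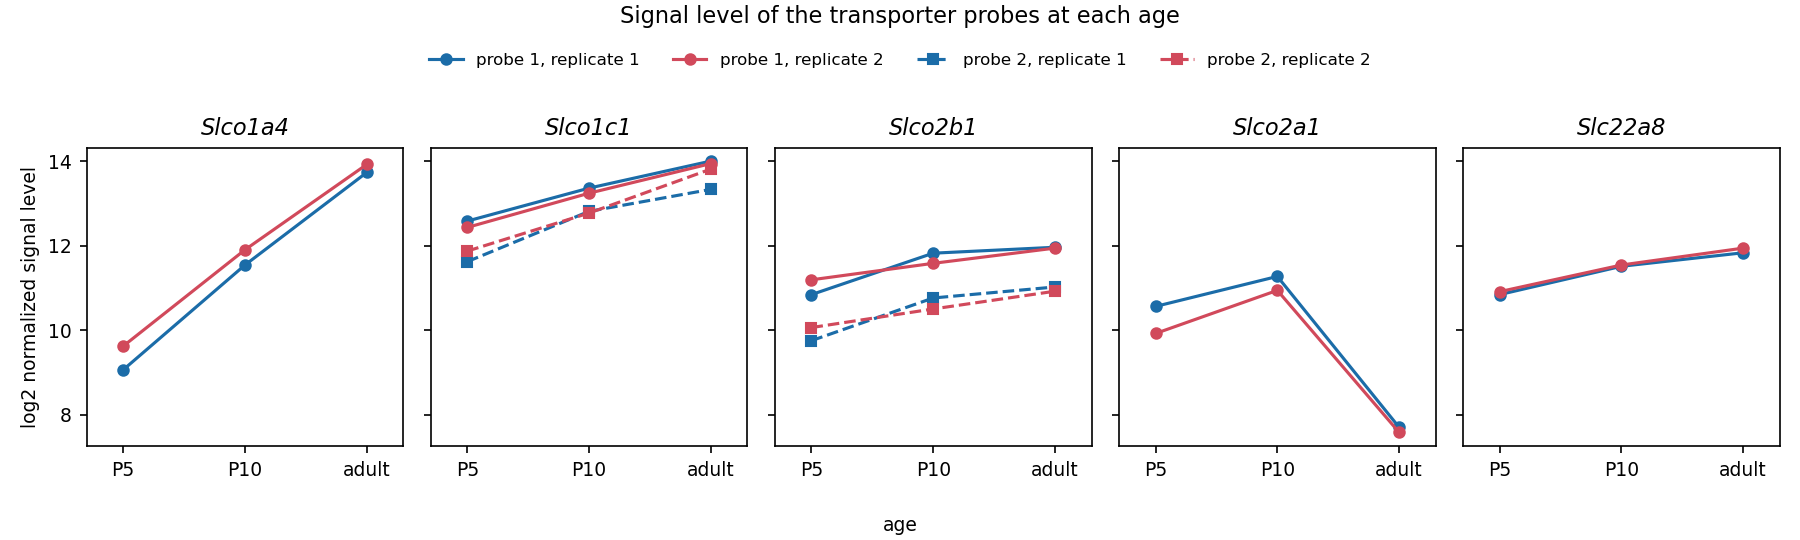
Log2 normalized signal level (vertical axis) of each probe of the 5 genes at P5, P10 and adult, with 1 line per replicate and dashed lines for the dimmer probe of Slco1c1 and Slco2b1. Slco1a4 climbs at both steps, Slco2a1 peaks at P10 and is lowest in adult, where its levels are 7.7 and 7.58.

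Slco1a4 had the steepest increase of the group. Its log2 level was 9.06 and 9.62 at P5, 11.54 and 11.9 at P10, and 13.73 and 13.92 in adult microvessels, in replicates 1 and 2. No level of 1 age overlapped with that of another, so the order P5, P10, adult held in both replicates. On the arrays that paired adult with P5, the adult channel (Cy3) read 8442 and 15224 and the P5 channel (Cy5) read 552 and 968, as median spot intensities before normalization. The local background there was 15 and 24 in the adult channel and 51 and 52 in the P5 channel, so the P5 signal was low but clear of background.

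The log2 ratio of Slco1a4 was 4.48 ± 0.13 (SE, n = 2) in adult against P5, with an adjusted p of 0.000522. It was 4.67 in replicate 1 and 4.3 in replicate 2. Of 21937 genes, only 2 had a higher ratio in that comparison. In the fit reported the increase split nearly evenly between the steps. It was 2.38 ± 0.13 in P10 against P5 (5.21-fold, adjusted p = 0.00397) and 2.1 ± 0.13 in adult against P10 (4.29-fold, adjusted p = 0.00241). The difference between the steps, P10 minus P5 less adult minus P10, was 0.28 ± 0.22 (adjusted p = 0.396), which did not pass. That contrast was added after the values were seen, and 11.7% of all genes passed it. Among all genes Slco1a4 ranked 14 from the highest before P10 and 49 from the highest after it.

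The Slco1a4 ratio of adult over P10 was alike in both dye orientations. P5 RNA was in Cy5 on every array that held it, so no comparison with P5 was dye-exchanged. The arrays with adult RNA in Cy3 gave log2 ratios of adult over P10 of 2.29 and 2.14, and those with adult RNA in Cy5 gave 2.33 and 1.95. Median centring of each array in place of loess gave Slco1a4 5.14 in adult against P5. The steps were then less even, at 3.11 in P10 against P5 and 2.04 in adult against P10. Agilent's processed signals gave 2.66 and 2.09 for these steps, and the background fit on all spots gave 1.99 and 2.2. Median centring also moved the median of all genes, to 0.07 in adult against P5 and 0.12 in P10 against P5. The Slco1a genes are close relatives, and whether this probe also binds RNA of a neighbour was not tested, since probe sequences were not used here.

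**Figure D2:**
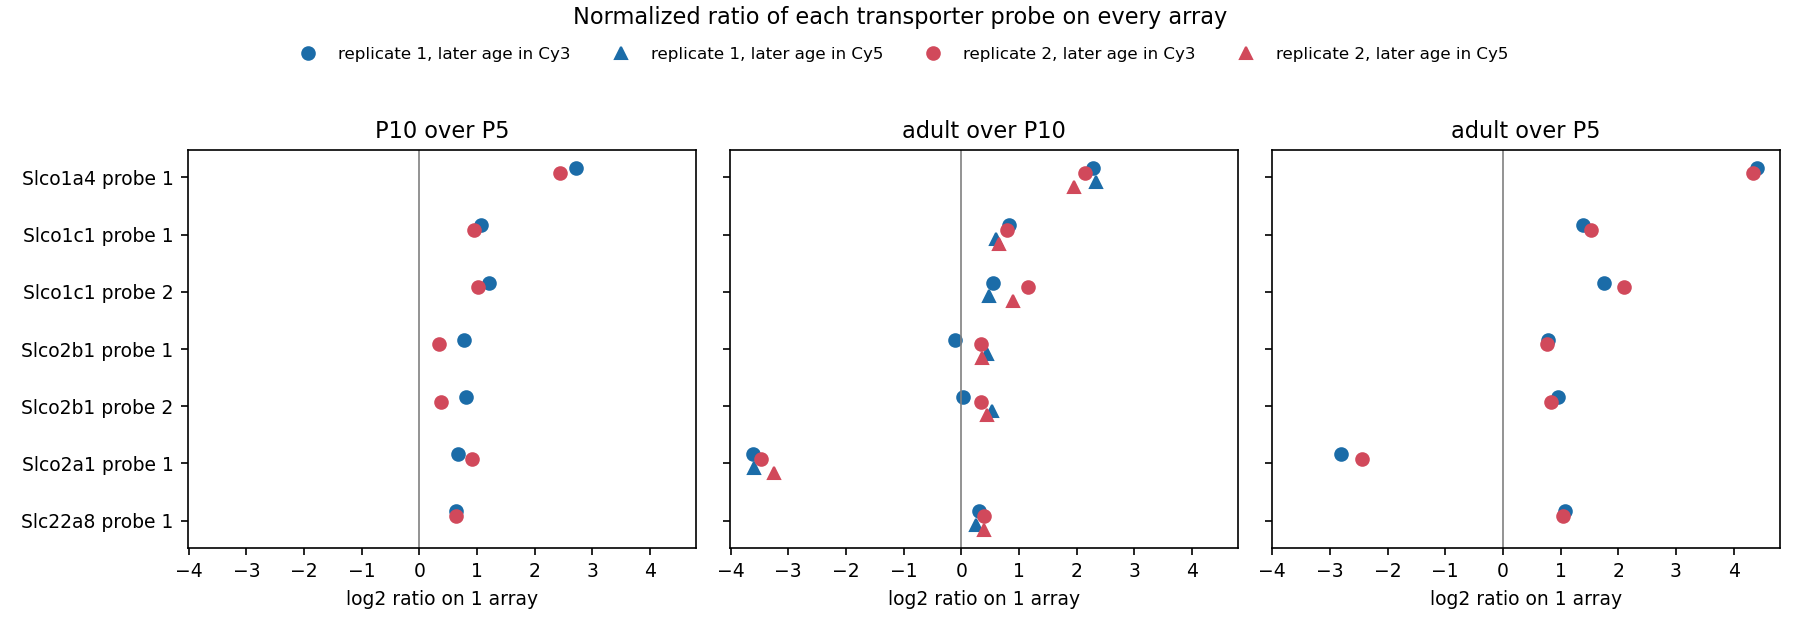
Log2 ratio of the later over the earlier age (horizontal axis) of each probe on every array, by pair of ages, with colour for the replicate and triangles for arrays with the later age in Cy5. The Slco1a4 and Slco2a1 ratios of adult over P10 stay apart from 0 in both dye orientations, between 1.95 and 2.33 and between -3.61 and -3.24.

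Slco1c1, the thyroxine carrier, rose at both steps and by less. Its brighter probe had log2 levels of 12.58 and 12.43 at P5, 13.36 and 13.24 at P10, and 14 and 13.94 in adult. The dimmer probe read 11.62 and 11.87 at P5, 12.81 and 12.77 at P10, and 13.33 and 13.81 in adult. For each probe the ages were in the same order with no overlap, and both probes gave an increase in both replicates.

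In adult against P5 the brighter Slco1c1 probe had a log2 ratio of 1.47 ± 0.09 (adjusted p = 0.000917), with 1.42 and 1.51 in the replicates. The dimmer probe, fitted among all kept probes, had 1.82 ± 0.15 (adjusted p = 0.00124), where 52.1% of probes passed. In P10 against P5 the brighter probe had 0.8 ± 0.09 (1.74-fold, adjusted p = 0.00743), with 0.79 and 0.81 in the replicates. After P10 the same probe had 0.67 ± 0.09 in adult against P10 (1.59-fold, adjusted p = 0.0144), with 0.64 and 0.7. Each step was an increase in both replicates. The steps differed by 0.13 ± 0.16 (adjusted p = 0.608). The call in adult against P10 was lost under 3 other settings: 0.54 with median centring (adjusted p = 0.306), 0.61 with the background fit on all spots (adjusted p = 0.103), and 0.53 without the 2 arrays that held faulty background spots (adjusted p = 0.146). The P10 against P5 call was lost without those arrays (0.64, adjusted p = 0.0516) and with the background fit on all spots (0.82, adjusted p = 0.0833), and median centring gave 2.13 in adult against P5 and 1.59 in P10 against P5.

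Slc22a8, which encodes Oat3, rose early and then little. Its log2 level was 10.84 and 10.91 at P5, 11.51 and 11.54 at P10, and 11.83 and 11.94 in adult. The replicates lay close together, with SDs of 0.05, 0.02 and 0.08 at the 3 ages, and no ages overlapped. The log2 ratio was 1.01 ± 0.09 in adult against P5 (adjusted p = 0.0019) and 0.65 ± 0.09 in P10 against P5 (1.57-fold, adjusted p = 0.0108). The value in adult against P10 was 0.36 ± 0.09 (adjusted p = 0.0652), 0.32 and 0.4 in the replicates, so adult and P10 were not separated by the test. With no filter on dim probes that value passed at an adjusted p of 0.0469, and with the slide as a random block at 0.000543. The difference between the steps was 0.29 ± 0.16 (adjusted p = 0.256). Median centring gave Slc22a8 1.65 in adult against P5 and 1.32 in P10 against P5.

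Slco2b1 rose before P10, by unequal amounts in the 2 replicates. Its brighter probe had log2 levels of 10.84 and 11.19 at P5, 11.82 and 11.58 at P10, and 11.96 and 11.94 in adult. The dimmer probe read 9.75 and 10.06 at P5, 10.76 and 10.5 at P10, and 11.02 and 10.92 in adult. P5 was lowest in both replicates, and the ages did not overlap, although P10 and adult lay close together in replicate 1.

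The Slco2b1 log2 ratio was 0.93 ± 0.16 in adult against P5 (adjusted p = 0.00953), with 1.12 and 0.75 in the replicates. In P10 against P5 it was 0.68 ± 0.16 (adjusted p = 0.0292), with 0.98 in replicate 1 and 0.39 in replicate 2. In adult against P10 it was 0.25 ± 0.16 (adjusted p = 0.388), and 1 of the 4 arrays gave a ratio below 0, -0.11. The dimmer probe gave 1.06 ± 0.16 in adult against P5, 0.73 ± 0.16 in P10 against P5 and 0.34 ± 0.16 in adult against P10. Fitted among all kept probes, of which 52.1%, 40.2% and 17.2% passed in those comparisons, it passed in the first pair and not in adult against P10 (adjusted p = 0.232). With the slide as a random block the adult against P10 value passed (adjusted p = 0.0378), and median centring gave 1.58 in adult against P5 and 1.37 in P10 against P5. The steps differed by 0.44 ± 0.29 (adjusted p = 0.32).

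Slco2b1 RNA is also known from microglia in humans, and microglial markers differed between the replicates as well. Of 14 microglial markers, 13 had a higher P5 level in replicate 2 than in replicate 1. The median log2 ratio of the list in P10 against P5 was 0.1 in replicate 1 and -1.15 in replicate 2. The Slco2b1 ratio was also the smaller one in replicate 2. Medians of pericyte (1.17 and 0.79), choroid plexus (0.23 and -0.17), immature neuron (-1.02 and -1.43) and myelinating oligodendrocyte markers (0.23 and 0.12) were smaller there too. Those of endothelial, perivascular macrophage, astrocyte, meningeal fibroblast, mature neuron and erythroid markers were larger in replicate 2. In the fit over both replicates 3 of the 14 microglial markers were lower in P10 against P5 (median -0.55), beside 23% of all genes. The other markers of that list did not pass. The summed linear level of all 14 was 70451 and 64731 in adult, against 322956 and 176465 at P5, in replicates 1 and 2. Without Siglech, the brightest of the list, the sum was 19400 to 42700 at P5, 19500 to 19700 at P10 and 19200 to 19300 in adult. Most of the age difference in the full sum thus came from Siglech. At P5 the full sum was higher in replicate 1, the opposite of the count of markers. The part of microglia in the Slco2b1 values was not tested.

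Slco2a1, the prostaglandin transporter, had a course of its own within the group. Its log2 level was 10.56 and 9.92 at P5, 11.27 and 10.94 at P10, and 7.7 and 7.58 in adult microvessels. Adult levels lay far below the other ages in both replicates, and P10 was the highest age in each. On the adult and P5 arrays the median spot intensity was 116 and 159 in the adult channel (Cy3), against 1525 and 1286.5 in the P5 channel (Cy5). The adult signal stood above local backgrounds of 15.5 and 23.5, so it was low but measured.

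In adult against P10 the Slco2a1 log2 ratio was -3.47 ± 0.15, which is 11.1-fold lower in adult (adjusted p = 0.00185), with -3.58 and -3.36 in the replicates. It was the 10th lowest of all 21937 genes in that comparison. In adult against P5 it was -2.6 ± 0.15 (adjusted p = 0.000792), with -2.86 and -2.33. In P10 against P5 it was 0.87 ± 0.15 (1.83-fold higher at P10, adjusted p = 0.015), with 0.72 and 1.02. Each comparison had the same direction in both replicates. The step before P10 exceeded the step after it by 4.34 ± 0.26 (adjusted p = 0.00924), the only member past that test.

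The Slco2a1 decrease after P10 was present in both dye orientations, at -3.61 and -3.47 with adult RNA in Cy3 and at -3.6 and -3.24 with adult RNA in Cy5. Its size varied with the treatment of low signals: Agilent's processed signals gave -4.08 in adult against P10 (adjusted p = 0.00599), and the background fit on all spots gave -2.88 (adjusted p = 0.0526) and, in adult against P5, -1.77 (adjusted p = 0.0367). The early increase did not pass without the replicate block (0.87, adjusted p = 0.0558) or with the background fit on all spots (1.11, adjusted p = 0.135).

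By the calls of the 3 comparisons the members fell into 3 courses. Slco1a4 and Slco1c1 passed as higher in all 3, a course shared by 706 genes (3.22%). Slco2b1 and Slc22a8 passed as higher in P10 against P5 and in adult against P5 and did not pass in adult against P10, as did 2082 genes (9.49%). Only the adult against P10 call divides that course from the one of Slco1a4 and Slco1c1. Slco1c1 lost that call under 3 other settings, and Slco2b1 and Slc22a8 gained it under some. Slco2a1 was higher at P10 than at P5 and lower in adult than at either, as were 193 genes (0.88%).

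**Figure D3:**
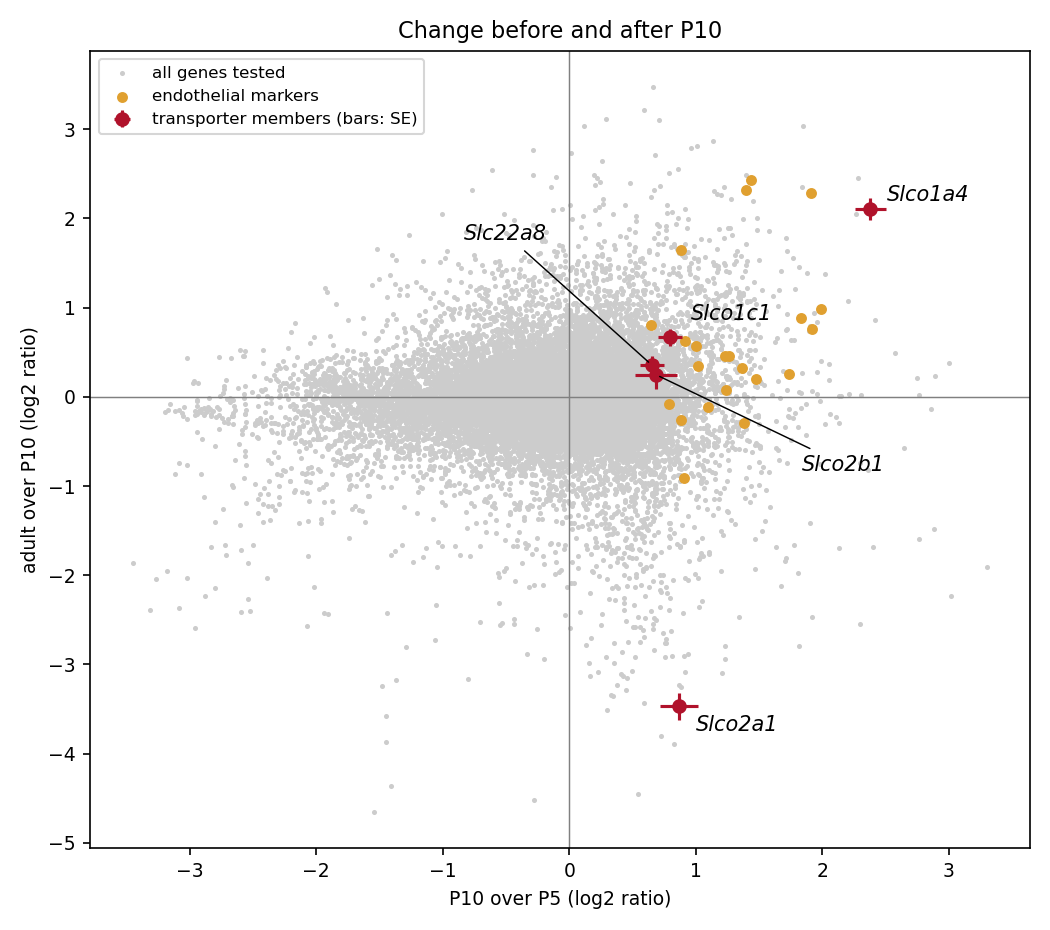
Log2 ratio of P10 over P5 (horizontal axis) against that of adult over P10 (vertical axis) for all 21937 genes tested in grey, the 22 endothelial markers in orange and the 5 transporter genes in red with standard errors. Slco1a4 lies at the upper right, at 2.38 and 2.1, and Slco2a1 at the bottom, at 0.87 and -3.47.

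Endothelial markers differed between the ages. Of 22 endothelial markers, all measured, 21 were higher in adult against P5, beside 23% of all genes. The log2 ratios of the 22 ran from -0.01 to 4.2, with a median of 1.68 (1.59 in replicate 1 and 1.73 in replicate 2). Later, in adult against P10, 9 were higher and 1 was lower (9.1% and 8.42% of all genes), with a median of 0.46. In P10 against P5 all 22 were higher (18.2% of all genes), with a median of 1.25. With median centring the endothelial medians were 2.24 in adult against P5 and 1.94 in P10 against P5. The summed linear level of these markers was 161000 to 204000 at P5, 417000 to 444000 at P10 and 758000 to 865000 in adult. In bulk RNA a larger share of endothelial cells and more RNA per cell cannot be told apart, and the part of either in the transporter values was not tested.

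Set beside that median within each replicate, the members differed. The adult against P5 log2 ratio of Slco1a4 exceeded the endothelial median by 3.08 and 2.56. The highest endothelial marker, Ly6c1, had 4.2 in the fit over both replicates, near the 4.48 of Slco1a4. Slco1c1 lay below the median by a little, at -0.17 and -0.23, Slc22a8 at -0.6 and -0.7, and Slco2b1 at -0.48 and -0.98. Slco2a1 lay at -4.45 and -4.07. In adult against P10 the differences were 1.76 and 1.51 for Slco1a4, 0.21 and 0.2 for Slco1c1, -0.12 and -0.1 for Slc22a8, -0.3 and -0.14 for Slco2b1, and -4.01 and -3.86 for Slco2a1. In P10 against P5 they were 1.35 and 0.94 for Slco1a4, -0.35 and -0.53 for Slco1c1, -0.46 and -0.71 for Slc22a8, -0.15 and -0.95 for Slco2b1, and -0.42 and -0.32 for Slco2a1. Slco1a4 alone lay above the endothelial median there, and the other 4 rose by less than it in both replicates. These differences are descriptions with no test.

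Markers of other cells moved as well, and their part in the transporter values was not tested. Choroid plexus cells carry Oat3 too, and 3 of 13 choroid plexus markers were higher and 8 lower in adult against P5 (median -0.99), while Slc22a8 was higher. Among meningeal fibroblast markers 3 of 12 were higher and 7 lower in that comparison (median -0.72). In adult against P10, where Slco2a1 fell most, 1 of them was higher and 6 lower (median -0.68, lowest -2.4). The shares of all genes were 23% higher and 30.1% lower in adult against P5, and 9.1% and 8.42% in adult against P10. Pericyte markers had a median of 1.35 in adult against P5, myelinating oligodendrocyte markers 1.29, mature neuron markers 0.43, perivascular macrophage markers 0.33 and astrocyte markers 0.21. The medians of immature neuron and erythroid markers were -2.28 and -4.92. Rgs5, Cd163, Snap25 and Rhag had no probe that passed the filter on signal and could be fitted. That filter asks that all channels of at least 1 age be well above background. Channels with only flagged spots count as failing, so such genes need not be dim. With median centring the P10 against P5 medians of the choroid plexus, microglial and mature neuron lists turned positive, to 0.47, 0.01 and 0.42.

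The genes nearest to each member were found by the distance between 4 log2 ratios, adult minus P5 and adult minus P10 in each replicate. Nearest to Slco1a4 was Ly6c1, an endothelial surface protein, at a distance of 0.48. Degs2, a sphingolipid desaturase, followed at 0.69, and Flt1, a receptor for vascular endothelial growth factor, at 0.99. Ly6c1 and Flt1 also stand in the endothelial list. Nearest to Slco1c1 were Nr3c1, the glucocorticoid receptor, at 0.09, Dnajb9, a chaperone of the endoplasmic reticulum, at 0.1, and Serpinb6c at 0.11. The other Dnajb9 probe gave a smaller adult against P5 log2 ratio, 0.86 beside 1.47. Nearest to Slc22a8 were Traf6, a signalling adaptor, at 0.03, Inpp1, an inositol phosphatase, at 0.05, and Heatr5a at 0.08. Slco2b1 had 3830403N18Rik at 0.1 and Rcan1, a calcineurin regulator, and Spata2l, both at 0.11.

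Nearest to Slco2a1 were H2ac22, a histone, at 0.49, Ccnb1, the mitotic cyclin B1, at 0.51, and Uhrf1, which maintains DNA methylation in dividing cells, at 0.55. The adult against P10 log2 ratio in replicates 1 and 2 was -3.78 and -3.08 for H2ac22, -3.31 and -3.25 for Ccnb1, and -3.28 and -3.03 for Uhrf1. For Ccnb1 and Uhrf1 other probes gave smaller changes, up to -1.14 and -0.63. Histone genes are near-identical, so the H2ac22 probe may also bind RNA of its relatives.

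Slco1a4 and Slco1c1 lie in a group of 6 Slco genes on chromosome 6, in the RefSeq order Slco1c1, Slco1b2, Slco1a4, Slco1a1, Slco1a6 and Slco1a5. Slco1b2, a liver carrier of bile salts, lies between both members and had log2 ratios of 0.67 ± 0.1 in adult against P5 (adjusted p = 0.00554), 0.7 ± 0.1 in adult against P10 and -0.03 ± 0.1 in P10 against P5. Slco1a5 had 0.24 ± 0.18 in adult against P5 (adjusted p = 0.3). It was named for its place in the group and not by the rule for named genes. Slco1a1 and Slco1a6 had no probe that passed the filter on signal and could be fitted. The probes of Slco1b2 and Slco1a5 were dim, with log2 levels of 6.57 to 7.34 and 6.65 to 7.49 over ages and replicates.

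Of 19 other listed genes of the Slco and Slc22 anion carrier families, 18 had a probe and 9 were tested. In adult against P5 1 of these, Slco1b2, was higher (23% of all genes) and 7 were lower (30.1% of all genes), with a median of -0.68. The lowest ratios were those of Slc22a23, an orphan carrier, at -1.36 ± 0.1 (adjusted p = 0.00119), and Slc22a6, which encodes Oat1 and also stands in the meningeal fibroblast list, at -1.3 ± 0.14 (adjusted p = 0.0029). Slco5a1 was not well above background in any adult channel and was at least 1.33-fold lower in adult than at P5 (adjusted p = 0.0165). Such a bound sets the measured level of the brighter age against the lowest signal that was well above background, or the probe's own where that was higher.

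Other carriers of thyroid hormone differed in their adult against P5 log2 ratios. Slc7a8, the light chain of the Lat2 amino acid exchanger, was lower in adult than at P5, at -1.38 ± 0.14 (adjusted p = 0.00225), and lower than at P10, at -1.73 ± 0.14 (adjusted p = 0.00416). Slc7a5, the Lat1 light chain, had 0.38 ± 0.14 (adjusted p = 0.0726), and Slc3a2, their common heavy chain, had 0.4 ± 0.14 (adjusted p = 0.0694). Slc16a10, which encodes Mct10, had -0.22 ± 0.12 (adjusted p = 0.167). Its probe was dim, with log2 levels of 6.43 to 6.86, and was well above background in 4 of 6 adult channels. Slc17a4 had no probe that passed the filter on signal and could be fitted. Thus 1 of these 4 tested carriers was lower in adult against P5, beside 30.1% of all genes, and the others did not pass. These ratios rank the genes by change and say nothing of their relative amounts, because levels of different probes cannot be compared.

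Neither Dio2 nor Dio3 passed in adult against P5. Dio2, the activating enzyme, had 0.22 ± 0.31 (adjusted p = 0.558), with 0.56 and -0.11 in the replicates. Dio3, the inactivating enzyme, had 0.04 ± 0.11 (adjusted p = 0.798). The Dio3 probe was dim at every age, with log2 levels from 6.42 to 6.73, so a change may be understated. Dio1 was not well above background in any adult channel, so no ratio is given for it. Of 15 listed genes of thyroid hormone metabolism and nuclear action, 2 were higher and 5 lower in adult against P5 (median -0.03). The shares of all genes there were 23% higher and 30.1% lower. Thrb, a thyroid hormone receptor, was higher by 0.7 ± 0.12 (adjusted p = 0.00822) and its coactivator Ncoa2 by 0.49 ± 0.09 (adjusted p = 0.012). Rxrg, a partner receptor, was lower at -1.73 ± 0.1 (adjusted p = 0.000837), with -0.75 for its other probe. Ttr, the thyroxine carrier protein made by the choroid plexus, was lower at -1.58 ± 0.45 (adjusted p = 0.0375). The median of this list was 0.03 with median centring.

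Of 18 genes listed as responsive to thyroid hormone in the brain, 12 were higher and 3 lower in adult against P5 (median 1.3), where 23% and 30.1% of all genes were. For adult against P10, 11 were higher and 3 lower (9.1% and 8.42% of all genes). In P10 against P5 6 were higher and 1 lower (18.2% and 23% of all genes). Mbp, a myelin protein that also stands in the oligodendrocyte list, had 2.45 ± 0.29 (adjusted p = 0.00344), although its 3 probes ranged from 0.12 to 2.45. Rasd2, a small GTPase of the striatum, had 2.4 ± 0.15 (adjusted p = 0.000907). Syce2 had -1.02 ± 0.12 (adjusted p = 0.00351), and Cirbp, a cold-inducible RNA-binding protein, had -0.84 ± 0.15 (adjusted p = 0.0103). The list holds genes of neurons and oligodendrocytes, and the part of those cells in these values was not tested.

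Of 23 listed genes of prostaglandin synthesis, export and reception, 21 were tested. In adult against P5, where Slco2a1 was lower, 11 of them were higher and 2 lower (median 0.32), beside 23% and 30.1% of all genes. Pla2g4a, the phospholipase that releases arachidonic acid, had 3.1 ± 0.15 (adjusted p = 0.000542). Ptgs2, the inducible cyclooxygenase, was not well above background in any P5 channel and passed as higher in adult (adjusted p = 0.000522). Its mean log2 signal was 9.18 in adult, against a measured 6.01 at P5, where the level is only a bound. Ptges, a prostaglandin E synthase, had -1.31 ± 0.32 (adjusted p = 0.0226), with 0.1 for its other probe, and Hpgds, the prostaglandin D synthase of blood cells, had -0.51 ± 0.15 (adjusted p = 0.0431).

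Abcc4, an efflux pump of prostaglandins, had 2.72 ± 0.1 in adult against P5 (adjusted p = 0.000522), with 2.7 and 2.74 in the replicates. Hpgd, the enzyme that inactivates prostaglandins after uptake, had 0.74 ± 0.12 (adjusted p = 0.00758), with 0.72 and 0.77. Both were chosen after their values were seen, as partners of Slco2a1 in prostaglandin handling. In adult against P10, where Slco2a1 fell 11.1-fold, Abcc4 had 1.2 ± 0.1 (adjusted p = 0.00415) and Hpgd 0.11 ± 0.12 (adjusted p = 0.606).

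**Figure D4:**
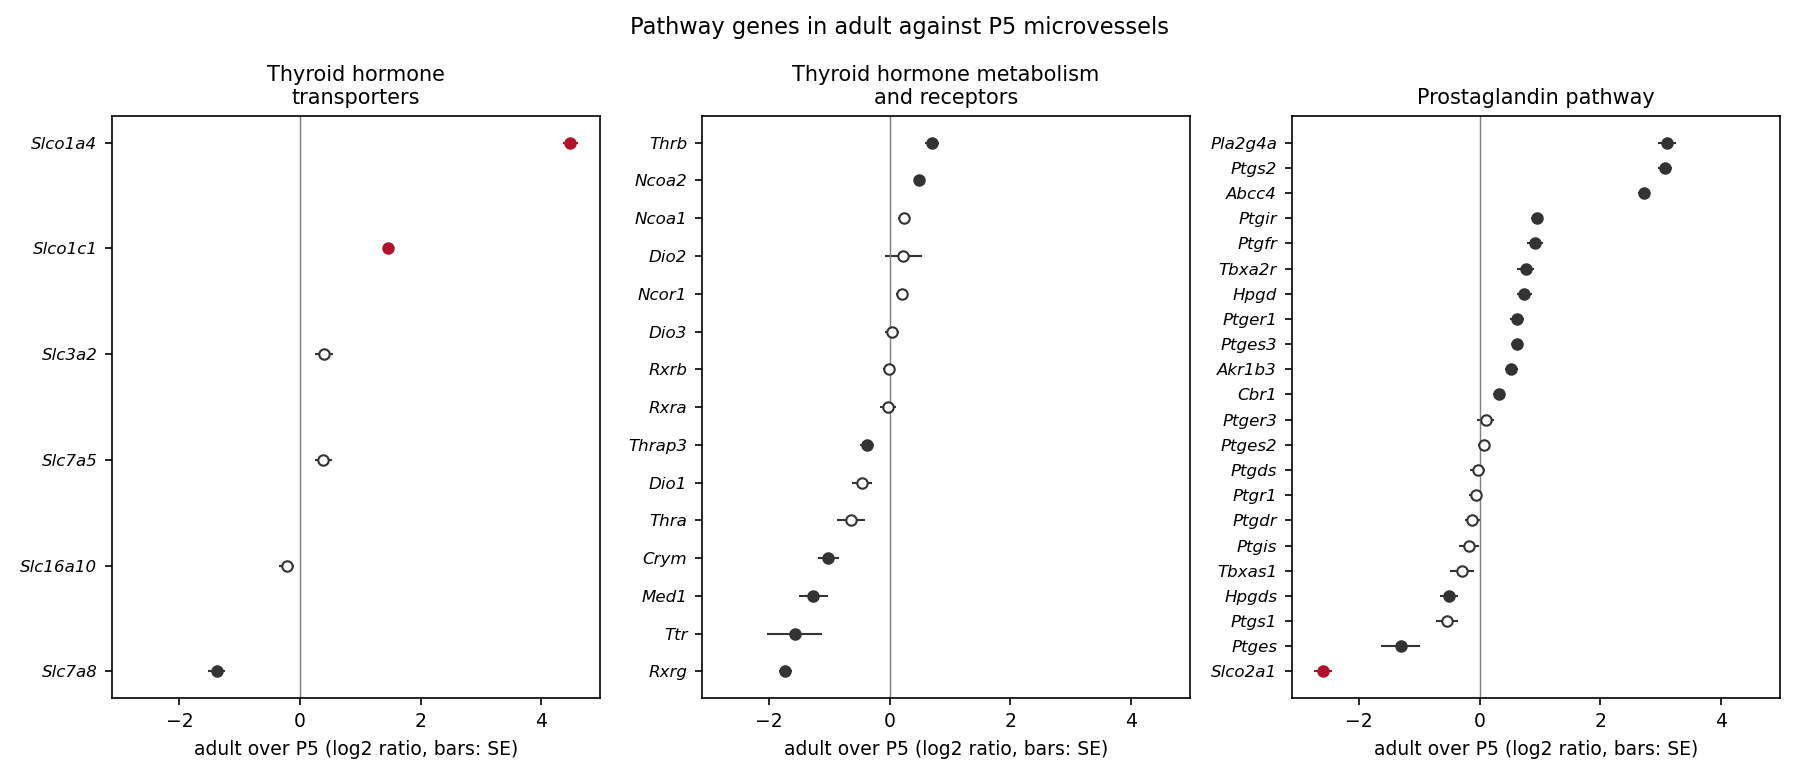
Log2 ratio of adult over P5 (horizontal axis, bars show the standard error) for tested genes of 3 lists, with filled points for genes past the adjusted threshold, open points for the others and members in red. Slco1a4 and Slco1c1 top the thyroid hormone carriers drawn, at 4.48 and 1.47, and Slco2a1 lies lowest in the prostaglandin panel at -2.6; Ptgs2 and Dio1 are drawn at fitted values although the P5 signal of Ptgs2 and the adult signal of Dio1 were not well above background.

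Genes were also listed for the conjugate metabolism of organic anions, and whether these carriers accept the products of those enzymes was not tested. Of 15 genes, 11 had a probe and 9 were tested. Of these, 5 were higher in adult against P5, beside 23% of all genes, and the others did not pass (median 0.6, lowest -0.23). Gstm1 and Gsta4, both glutathione transferases, had 1.53 ± 0.12 (adjusted p = 0.00127) and 0.6 ± 0.13 (adjusted p = 0.015). Ugt8a, which makes the galactolipids of myelin and also stands in the oligodendrocyte list, had 1.44 ± 0.1 (adjusted p = 0.00106). Sult1a1, a phenol sulfotransferase counted also among the hormone-responsive genes, had 1.31 ± 0.17 (adjusted p = 0.00428).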

How the data were processed

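Total RNA (100 ng) of 2 ages was labelled with Cy5 or Cy3 and hybridised on each array, per the labels' protocols. The arrays were read with Agilent Feature Extraction, version 10.5.1.1 per the file headers and 12.6 per the submitters' processing notes. Per the file headers, the authors deposited linear intensity values (median spot signals, median backgrounds and processed signals) and a log10 value of the Cy5 over Cy3 ratio. No depth exists for arrays, and the number of samples limits the precision. Per channel and array, 65.2% to 73.3% of 43020 non-control spots were well above background. No genome of the design's build was used, and the RefSeq table (GRCm38.p6) named 27427 of 39429 probes and left 12002 with their accession.

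In R 4.3.3 with limma 3.58.1, median signals were background-corrected (normexp, offset 50) and normalized by loess (span 0.3, control and outlier spots at weight 0). In replicate 1, 4 spots of the dye-exchanged P10 and adult array, and in replicate 2, 7 spots of the P5 and P10 array, lay more than 100 below their recorded background; they received the median background for the correction and were then left out. Spots of 1 probe were averaged. Probes were kept if, for at least 1 age, all channels were well above background (27122, of which 18 could not be fitted). A channel in which every spot of the probe was flagged as outlier or left out counted as failing. A gene was represented by its brightest kept probe. Only the P10 and adult pair was dye-exchanged. For each slide the 4 ratios were fitted with the age differences and a dye term, yielding 1 level for each age on each slide. These levels entered limma with age and a replicate block (2 residual and 2.91 prior degrees of freedom). The pairing is by construction, since ratios exist only within a slide; across genes the replicates' ratios correlated at 0.902, 0.813 and 0.8 in adult against P5, adult against P10 and P10 against P5. The procedure was tested on simulated data. Because the offset shrinks low signals, ratios of dim probes are understated.

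The members, the gene lists and the plan of tests were chosen with earlier results of these data known. Genes named are the members, the 3 nearest to each, the 2 highest and 2 lowest called genes of each pathway list in adult against P5, the measured thyroid hormone carriers except 1 that is not reported here, the deiodinases, and others where stated. Alternatives changed the background correction, normalization, dye term, block, probe filter, probe choice and the arrays or replicates used.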

Additional observations from a re-analysis of the deposited data

How the results depend on the processing

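Of 150 member values under 10 alternatives with a test, 0 reversed, 136 kept their side of the threshold, 11 lost the call and 3 gained it. In the background fit on all spots, the faulty spots (4 on 1 array and 7 on another) kept their recorded background during the correction. It differed from the fit reported in nothing else. With that fit, Slco1c1 (0.61) and Slco2a1 (-2.88) no longer passed in adult against P10. Nor did Slco1a4 (1.99), Slco1c1 (0.82), Slco2b1 (0.72), Slco2a1 (1.11) or Slc22a8 (0.65) in P10 against P5. The members passing were then 1 and 0, and limma called 5387, 257 and 0 genes in adult against P5, adult against P10 and P10 against P5, where the fit reported called 11650, 3844 and 9035. At an unadjusted p under 0.05, 7074 genes and 5 members passed in P10 against P5 under that fit. Median centring left Slco1c1 at 0.54 in adult against P10, called 1279 genes there, and changed the share of calls that were higher to 53.4% and 60.2%, against 43.4% and 44.2%, in adult against P5 and P10 against P5.

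Without the replicate block Slco2a1 did not pass in P10 against P5 (0.87), and 1659 and 4849 genes were called in adult against P10 and P10 against P5. With the slide as a random block, which counts arrays of the same extracts nearly separately, Slco2b1 (0.25) and Slc22a8 (0.36) passed in adult against P10, all 5 members with them, and 9945 genes. With no filter on dim probes Slc22a8 (0.36) passed there. Without the 2 arrays with faulty spots Slco1c1 did not pass in adult against P10 (0.53) or P10 against P5 (0.64), with 1877 and 5566 genes called. Leaving out replicate 1 or 2 leaves 1 value per age and no test, so no count of passing members exists; the values are the replicates' own, and the range in adult against P10 was 0.13 to 0.36 for Slco2b1 and -3.58 to -3.36 for Slco2a1. The causes of these changes were not tested. The signals of Slco2a1 in adult and of Slco1a4 at P5 were low though above background, and the part of this in their values was not tested.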
